A study of Homo sapiens with 6 samples.

Results

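The genes of the DNA replication machinery were compared between PANC1OR and PANC1 cells. The group holds 43 genes, taken by symbol from a count table of 58735 gene rows, and each symbol matched 1 row. PANC1OR is an oxaliplatin-resistant subline of PANC1, obtained by passaging the cells in rising concentrations of the platinum drug oxaliplatin until they proliferated stably without it, and PANC1 is the untreated parental line, established from a human carcinoma of the pancreatic duct. Each line is represented by 3 cultures grown in DMEM with serum and by 1 messenger RNA library per culture, so the spread between libraries is that of cultures of 1 resistant and 1 parental line. The sources used here do not give whether RNA was taken in the presence of oxaliplatin.

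Chromosome replication starts where the origin recognition complex (ORC) sits on DNA. With CDC6 and CDT1 it loads the MCM helicase, a ring of MCM2 to MCM7, and geminin (GMNN) holds CDT1 back outside the licensing window. CDC45 and the GINS complex turn the ring into an active helicase, primase and polymerase alpha lay down primers, and polymerases epsilon and delta extend them behind the sliding clamp PCNA. Platinum adducts on DNA can stall the replicative polymerases. Transcription of many of these genes is controlled by E2F factors, with E2F1 among the activators.

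Libraries held 12623721 to 26394388 reads assigned to genes in PANC1OR and 10199268 to 15875431 in PANC1. PANC1OR replicate 3 stood apart from PANC1OR replicates 1 and 2 along GC content, with a median log2 difference of 1.32 among genes above 60% GC and of -0.95 among genes below 40% GC. For PANC1 replicate 2 against PANC1 replicates 1 and 3 these medians were 0.34 and -0.25. The count of members called, in all and by role, is therefore also given for a fit that omits PANC1OR replicate 3, and for a fit of all libraries with an offset per gene and library that removes the trend with GC content. The offset follows each library's deviation from the mean of all libraries, so it also removes differences between the lines that follow GC content. Of the markers of a duct carcinoma line, KRT8, KRT18, SOX9 and VIM were read in every library at over 100 CPM (a gene's reads relative to the TMM-scaled total of its library), whereas KRT7 was at 0.812 to 3.39 CPM in PANC1OR and 0.428 to 1.25 CPM in PANC1. KRT19 was at 15.7 to 36.9 CPM in PANC1OR and 243 to 465 CPM in PANC1. Summed markers of acinar, endocrine, immune and endothelial cells stayed at or under 2.31 CPM in every library. Of the fibroblast markers, COL1A1 was at 109 to 291 CPM in PANC1OR and 80.4 to 95.3 CPM in PANC1, and COL1A2 and DCN had 1 read each in either line. PDGFRB was at 0.937 to 1.24 CPM in PANC1OR and 0.374 to 0.795 CPM in PANC1.

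The promoters of 3 members are printed to show the sequence around their starts: GINS3 and CDC6 are called members with a window in the RefSeq table used (GRCh38.p14), and MCM3 is the helicase subunit with the lowest fold change. Each window runs 5′ to 3′ on the gene's strand from 250 bases before to 50 bases after the annotated start, and capitals mark E2F motifs. The motif was searched on both strands in the spelling TTCGCGC and in the variants TTGGCGC, likewise TTCCCGC, and lastly TTGCCGC, and overlapping matches were counted separately. The GINS3 window lies at chr16:58392221-58392520 (+), the CDC6 window at chr17:40287629-40287928 (+) and the MCM3 window at chr6:52284693-52284992 (-).
GINS3: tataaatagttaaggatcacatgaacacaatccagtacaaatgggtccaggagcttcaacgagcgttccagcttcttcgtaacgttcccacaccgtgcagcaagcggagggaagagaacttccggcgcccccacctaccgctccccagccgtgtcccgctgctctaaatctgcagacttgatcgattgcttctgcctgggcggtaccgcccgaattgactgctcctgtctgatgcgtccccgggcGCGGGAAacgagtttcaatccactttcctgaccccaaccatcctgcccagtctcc
CDC6: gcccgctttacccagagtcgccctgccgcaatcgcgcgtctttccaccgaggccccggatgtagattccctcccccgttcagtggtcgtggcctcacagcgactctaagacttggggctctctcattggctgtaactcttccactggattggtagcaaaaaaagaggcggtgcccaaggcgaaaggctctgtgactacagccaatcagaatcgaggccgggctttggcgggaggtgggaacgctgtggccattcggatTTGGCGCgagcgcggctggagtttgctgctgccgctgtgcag
MCM3: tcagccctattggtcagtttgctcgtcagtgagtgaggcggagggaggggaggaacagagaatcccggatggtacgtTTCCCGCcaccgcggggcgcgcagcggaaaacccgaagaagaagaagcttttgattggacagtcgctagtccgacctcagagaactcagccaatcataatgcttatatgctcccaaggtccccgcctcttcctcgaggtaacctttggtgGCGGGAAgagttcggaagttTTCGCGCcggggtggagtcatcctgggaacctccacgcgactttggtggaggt
The GINS3 window held 1 match, starting at position -5 when the annotated start is counted as 0, the CDC6 window 1 match at position 8, and the MCM3 window 3 matches at positions -173, -23 and -3. Windows were found for 38 of the 43 members, 49 windows in all since some genes have several starts. At least 1 E2F motif was present in 28 of these 38 genes and in 59.2% of their windows, against 13% of all 35116 windows of the table. A CCAAT box was present in 59.2% of the member windows, against 34.6% of all windows. The motif of G2 and mitosis genes called CHR, searched as TTTGAA or TTCGAA on both strands, was in 2.04% of the member windows, against 16.4% of all windows. The median GC content was 64% in member windows and 58.7% in all windows, so base composition differs between them. A match is a letter match and not a measured binding site.

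All 43 members passed the filter on low counts. Of these, 1 rose (GINS3) and 2 fell (MCM4 and CDC6) in PANC1OR at an adjusted p under 0.05 (edgeR, quasi-likelihood test), which is 6.98% of the members. Over all 18751 tested genes 17.8% were called, 10.3% higher and 7.5% lower. In bulk RNA, fewer cells in S phase and less RNA per cell cannot be told apart. No member passed the cutoffs of the series design text, an absolute log2 fold change over 2 and an adjusted p under 0.01, which 6.25% of all tested genes did. The log2 fold changes (PANC1OR minus PANC1) ran from -0.79 to 1.19, and 32 of the 43 lay within 0.5 of 0. The median was -0.23 over members and 0.04 over all tested genes. The direction was negative for 31 members and positive for 12. In what follows, levels carry the SD over 3 libraries and log2 fold changes their SE, and values listed per library run over replicates 1, 2 and 3.

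Together the 43 genes took 0.275%, 0.276% and 0.298% of the reads of PANC1OR replicates 1, 2 and 3, and 0.335%, 0.351% and 0.342% of those of PANC1 replicates 1, 2 and 3. Their summed level was 2840.0 ± 229 CPM in PANC1OR and 3443 ± 256 CPM in PANC1 (SD, n = 3 each). The ranges of the summed level did not overlap between the lines, with 2706 to 3105 CPM in PANC1OR and 3271 to 3738 CPM in PANC1. The highest sum of each line was that of its library with the GC deviation, PANC1OR replicate 3 and PANC1 replicate 2. For single members, the PANC1OR libraries all lay above the PANC1 libraries for 1 member and all below for 9, and they overlapped for 33. Over all tested genes the shares were 18.9% above and 17.6% below.

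**Figure D1:**
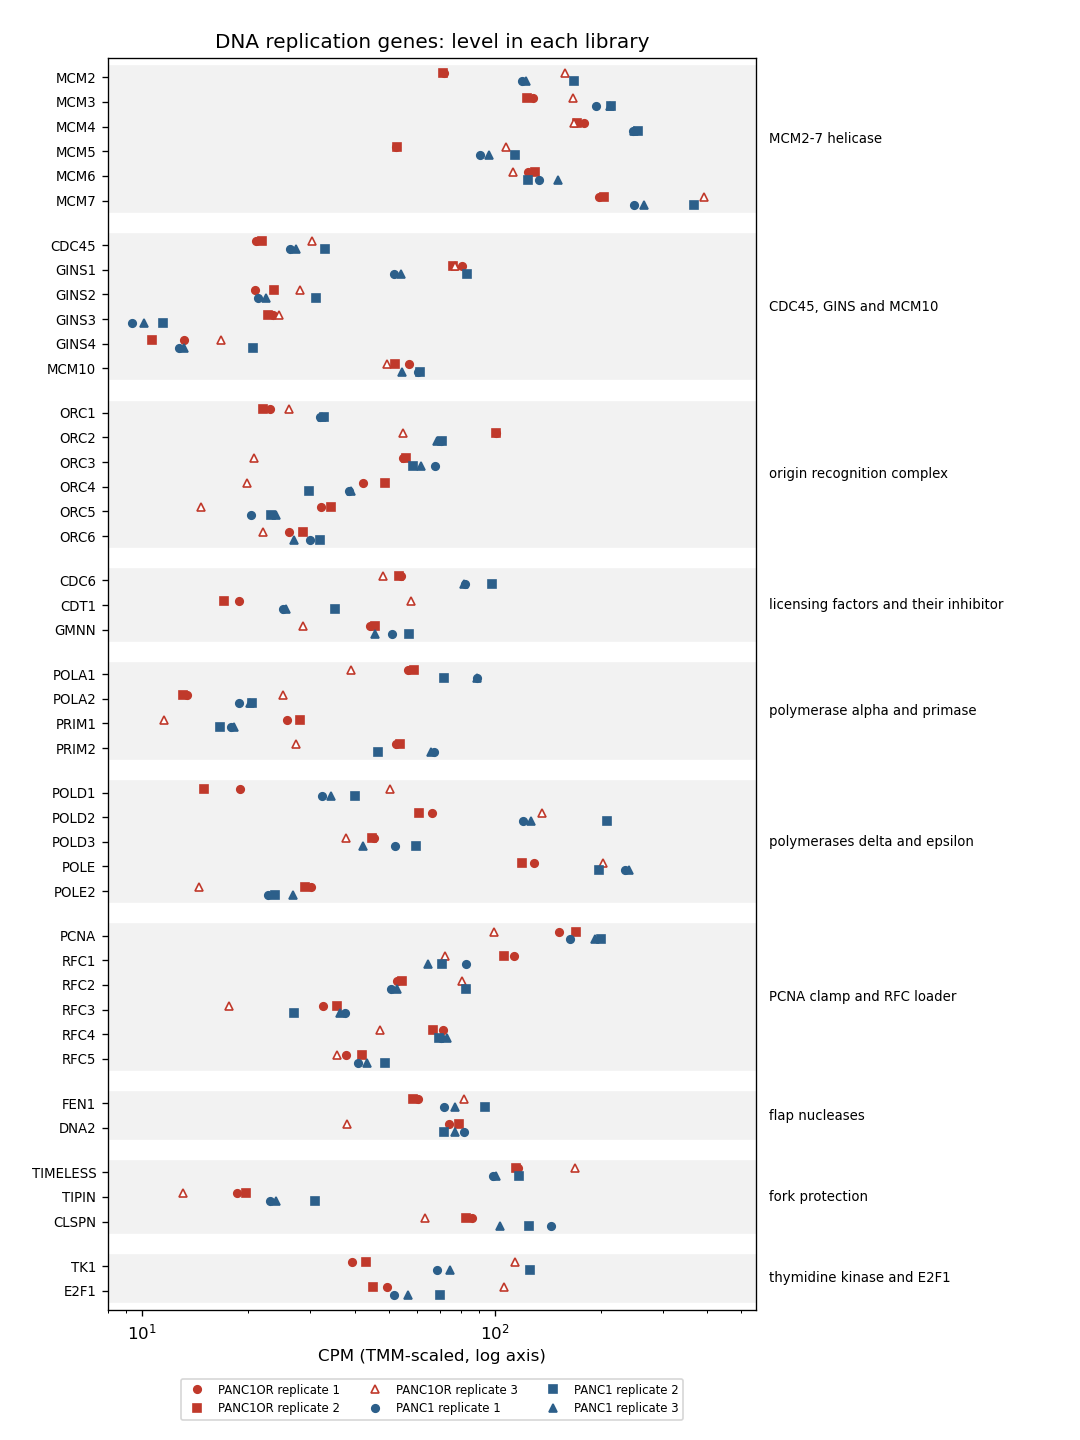
Level of each of the 43 replication genes in CPM (TMM-scaled, log axis) in the 3 PANC1OR libraries (red) and the 3 PANC1 libraries (blue), grouped by role. PANC1OR replicate 3, drawn as an open triangle, lies away from PANC1OR replicates 1 and 2 for many members, to the right for CDT1, POLD1 and TK1 and to the left for ORC3, ORC5 and PRIM1.

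How many members were called depended on PANC1OR replicate 3. Without that library 5 members rose and 18 fell, 53.5% of the members, where 44.1% of all 19650 genes tested in that fit were called, 22.1% higher and 22% lower. The 2 PANC1OR libraries left in that fit were close to each other, with a chi-square per degree of freedom of 3.59 between their counts, against 10.7 to 31.1 between pairs of PANC1 libraries, and these 2 set the PANC1OR spread behind the calls. With GC offsets and all 6 libraries 3 members rose and 19 fell, 51.2% of the members beside 39% of all tested genes, 19.9% higher and 19.1% lower. When PANC1 replicate 2 was omitted as well as PANC1OR replicate 3, 7 rose and 22 fell, 67.4% of the members beside 58.5% of all tested genes, 29% higher and 29.5% lower. DESeq2 on 6 libraries called 1 member higher, where it called 12.1% of all genes, and 5 lower, where it called 9.56%, together 14% of the members beside 21.7% of all genes. No member was called in opposite directions by any pair of these 3 edgeR fits and the 6-library edgeR fit. In all 3 edgeR fits with libraries left out or GC offsets 13 members were called lower (MCM2, MCM3, MCM4, MCM5, ORC1, CDC6, POLA1, POLD1, POLD2, POLE, TIPIN, CLSPN and TK1) and 2 higher (GINS3 and RFC1). These are 30.2% and 4.65% of the members, where 15.5% of the 18751 genes were lower and 16.1% higher in all 3 fits. Only the fit with GC offsets adjusts for GC content, and all 3 share PANC1OR replicates 1 and 2, so they are not independent of each other. Of the members, 10 were called in none of these 4 fits.

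The GC content of the members moved with these calls. Over the 43 members, the log2 deviation of PANC1OR replicate 3 from replicates 1 and 2 had a Pearson r of 0.92 with the GC content of the longest transcript, as a description over genes of the same libraries. The deviation ran from -1.41 (ORC3, 39.3% GC) to 1.68 (CDT1, 64.3% GC). The 18 members lower without PANC1OR replicate 3 had a median GC content of 52.1%, the 5 higher ones 41.7% and the 20 not called 43.7%. The r between GC content and log2 fold change was -0.68 without PANC1OR replicate 3, -0.58 with PANC1 replicate 2 also left out, -0.17 with GC offsets and -0.16 with 6 libraries. The part of GC content in the calls was not tested beyond these fits.

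**Figure D2:**
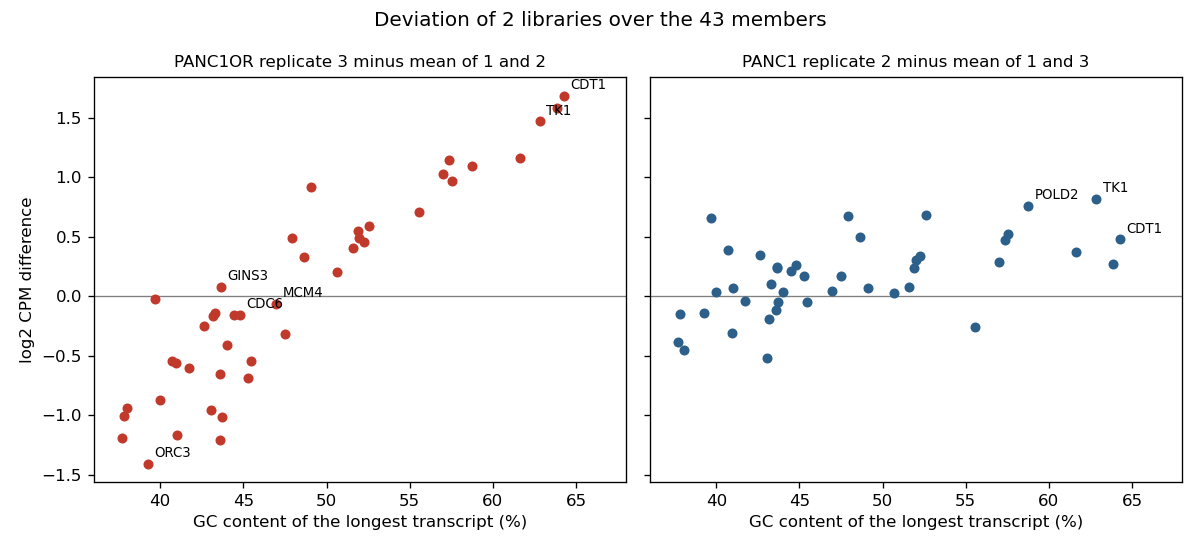
Difference in log2 CPM of PANC1OR replicate 3 from the mean of PANC1OR replicates 1 and 2 (left) and of PANC1 replicate 2 from the mean of PANC1 replicates 1 and 3 (right) against the GC content of the longest transcript, each point 1 of the 43 members. On the left the points climb from -1.41 at ORC3 to 1.68 at CDT1, and GINS3, CDC6 and MCM4 lie near 0.

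The MCM2-7 helicase genes, whose products form the ring that unwinds the fork, had negative log2 fold changes for 6 of 6 members, and 1 of them, MCM4, fell. Of the 6, 5 fell without PANC1OR replicate 3 and 4 with GC offsets. Over all tested genes 22% fell without PANC1OR replicate 3 and 19.1% with GC offsets, and 22.1% and 19.9% rose. These shares are the background for the counts of every role below, and no role was tested as a set. MCM4 (ENSG00000104738, chromosome 8, 47960185 to 47978160 on GRCh38) was at 179, 171 and 168 CPM in PANC1OR replicates 1, 2 and 3, and at 247, 254 and 248 CPM in PANC1 replicates 1, 2 and 3. All PANC1OR libraries lay below all PANC1 libraries, and PANC1OR replicate 3 did not stand apart. The log2 fold change was -0.53 ± 0.15 (SE, adjusted p = 0.0493). That call was lost without any 1 library other than PANC1OR replicate 3, at adjusted p from 0.0958 to 0.193, and the adjusted p was 0.00463 without PANC1OR replicate 3 and 0.0014 with GC offsets.

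MCM3 had the lowest fold change of the ring, with 128, 123 and 167 CPM in PANC1OR and 194, 213 and 212 CPM in PANC1. The groups did not overlap, and the log2 fold change was -0.57 ± 0.18 (adjusted p = 0.0722; 0.00106 without PANC1OR replicate 3). MCM7 had the highest, with 198, 204 and 391.6 CPM in PANC1OR and 248, 367 and 265 CPM in PANC1. Here the groups overlapped, and PANC1OR replicate 3 and PANC1 replicate 2 were the high libraries of their lines (log2 fold change -0.15 ± 0.31, adjusted p = 0.798). Without PANC1OR replicate 3 it stood at -0.56 ± 0.17 and was called lower (0.0309), and with GC offsets at -0.19 ± 0.11 (0.225). MCM2 and MCM5 stood at -0.44 ± 0.34 and -0.51 ± 0.30 with 6 libraries, and at -0.94 ± 0.16 and -0.94 ± 0.13 without PANC1OR replicate 3 (adjusted p = 0.00207 and 0.00064). With GC offsets they stood at -0.50 ± 0.12 and -0.56 ± 0.10 (0.00986 and 0.00216). MCM6 was at 122 ± 8.68 CPM in PANC1OR and 136 ± 13.5 CPM in PANC1 (adjusted p = 0.603). It was called in 1 of the 4 fits, lower when both PANC1 replicate 2 and PANC1OR replicate 3 were omitted (0.0427).

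**Figure D3:**
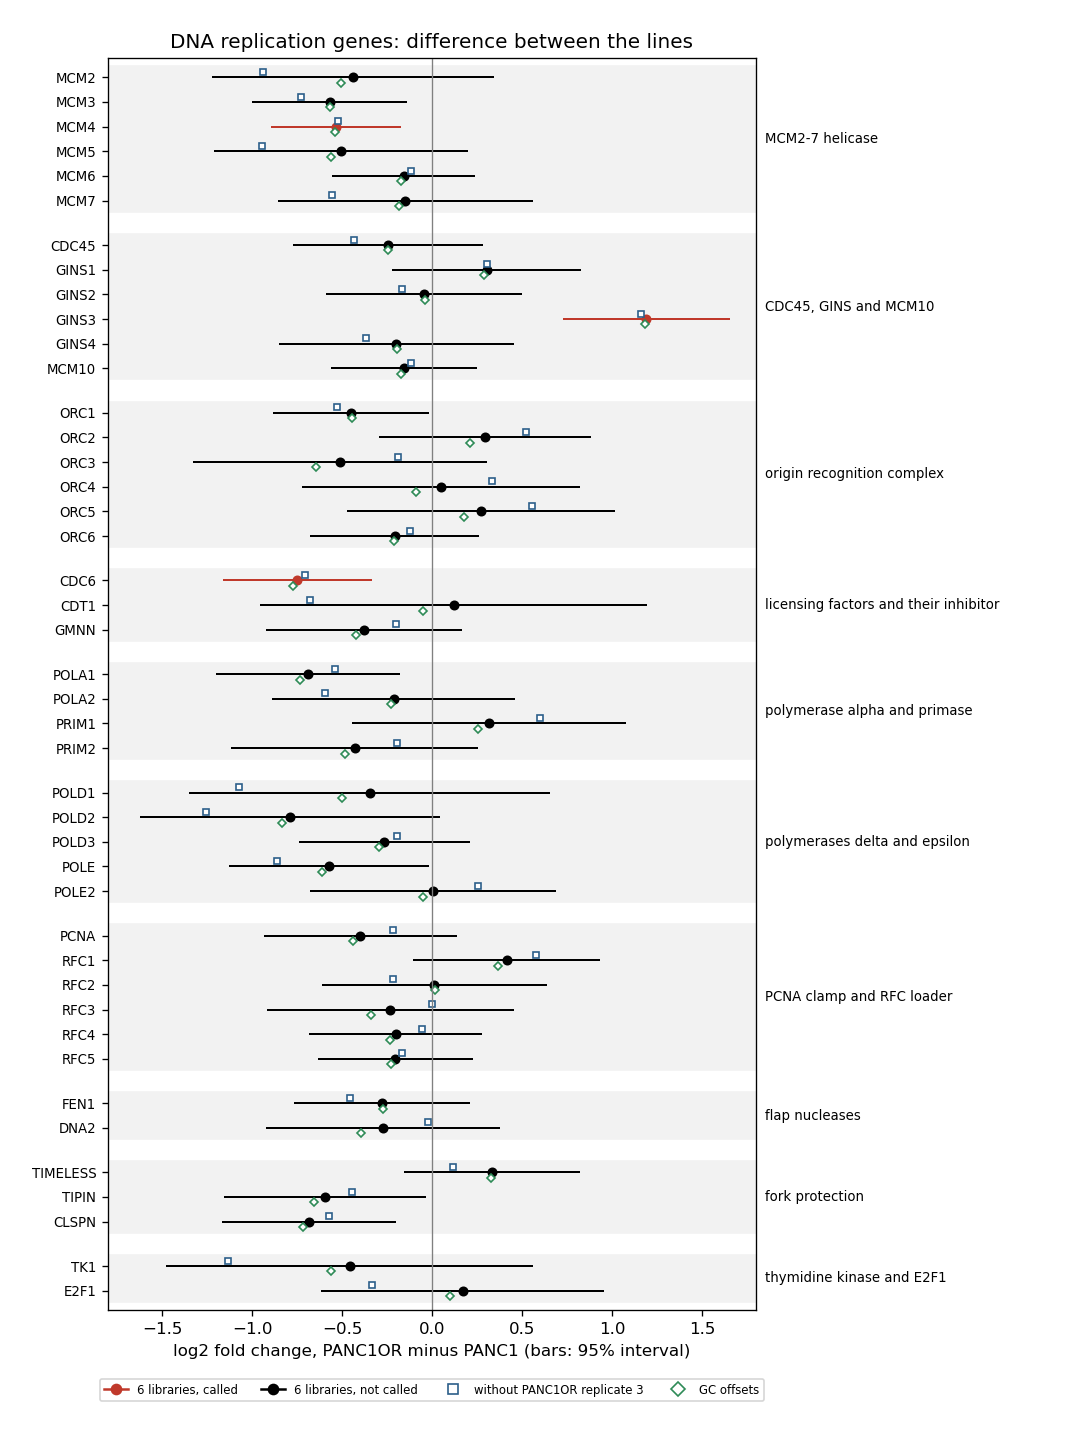
Log2 fold change of each replication gene, PANC1OR minus PANC1, with its 95% interval from the 6-library fit (filled circles, red where called), beside the values without PANC1OR replicate 3 (squares) and with GC offsets (diamonds). GINS3 lies at 1.19, to the right of every other member, and the 6 MCM2-7 genes all lie left of 0.

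Of CDC45, the 4 GINS subunits and MCM10, which activate the loaded helicase, 1 rose and 5 were not called. GINS3 also rose with GC offsets, where 0 fell, and when PANC1OR replicate 3 was omitted, where 1 other gene of these 6 fell, CDC45. GINS3 (ENSG00000181938, chromosome 16, 58295080 to 58406147), which encodes the PSF3 subunit, was at 23.4, 22.8 and 24.4 CPM in PANC1OR and at 9.34, 11.5 and 10.2 CPM in PANC1. The libraries of a line lay close together, and every PANC1OR value was above every PANC1 value. The log2 fold change was 1.19 ± 0.20 (adjusted p = 0.00453), a fold of 2.28, and it stayed called in each of the 6 fits without 1 library, at adjusted p from 0.000351 to 0.0417. The exons of GINS3 overlap those of an unnamed gene on the opposite strand (ENSG00000276131). The sources used here do not give the strand setting of the counting, so how reads at the shared positions were counted is not known. The same holds for 14 members in all, among them MCM7 (AP4M1), GINS1 (NINL), GINS2 (GSE1) and RFC4 (EIF4A2). Exons of 7 members overlap those of a gene on the same strand, among them PRIM1 (NACA) and FEN1 (FADS2), which a strand setting does not separate. The GENCODE model of GINS3 begins upstream of the RefSeq start whose promoter is printed above.

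The partners of GINS3 in the complex did not pass the test with 6 libraries. GINS1, the PSF1 subunit, was at 80.5, 76.1 and 76.9 CPM in PANC1OR and at 51.6, 83.4 and 54.3 CPM in PANC1, so that PANC1 replicate 2 lay above all PANC1OR libraries (log2 fold change 0.30, 95% interval -0.21 to 0.82). GINS1 was called higher when both PANC1 replicate 2 and PANC1OR replicate 3 were omitted (adjusted p = 1.94e-05). GINS2, the PSF2 subunit, was at 24.2 ± 3.58 CPM in PANC1OR and 24.9 ± 5.30 CPM in PANC1 (-0.04, interval -0.58 to 0.49). GINS4, the SLD5 subunit, was at 13.5 ± 3.02 CPM in PANC1OR and 15.5 ± 4.48 CPM in PANC1 (-0.20, interval -0.84 to 0.45). The log2 ratio of GINS3 to its 3 partners was taken as its log2 level minus the mean of their log2 levels. This ratio was -0.26, -0.23 and -0.43 in PANC1OR replicates 1, 2 and 3, and -1.37, -1.71 and -1.31 in PANC1 replicates 1, 2 and 3. The mean ratio was higher by 1.16 in PANC1OR. It was formed after GINS3 was seen to be called, so it is a description without a test.

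CDC45, the helicase cofactor, had the lowest fold change of these 6 genes, with 21.1, 21.9 and 30.2 CPM in PANC1OR and 26.3, 33.0 and 27.3 CPM in PANC1 (-0.24 ± 0.23, adjusted p = 0.536). The groups overlapped through PANC1OR replicate 3, and without it the adjusted p was 0.0363. MCM10, which bridges helicase and primase, was at 52.8 ± 3.90 CPM in PANC1OR and 58.8 ± 3.86 CPM in PANC1 (adjusted p = 0.62).

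**Figure D4:**
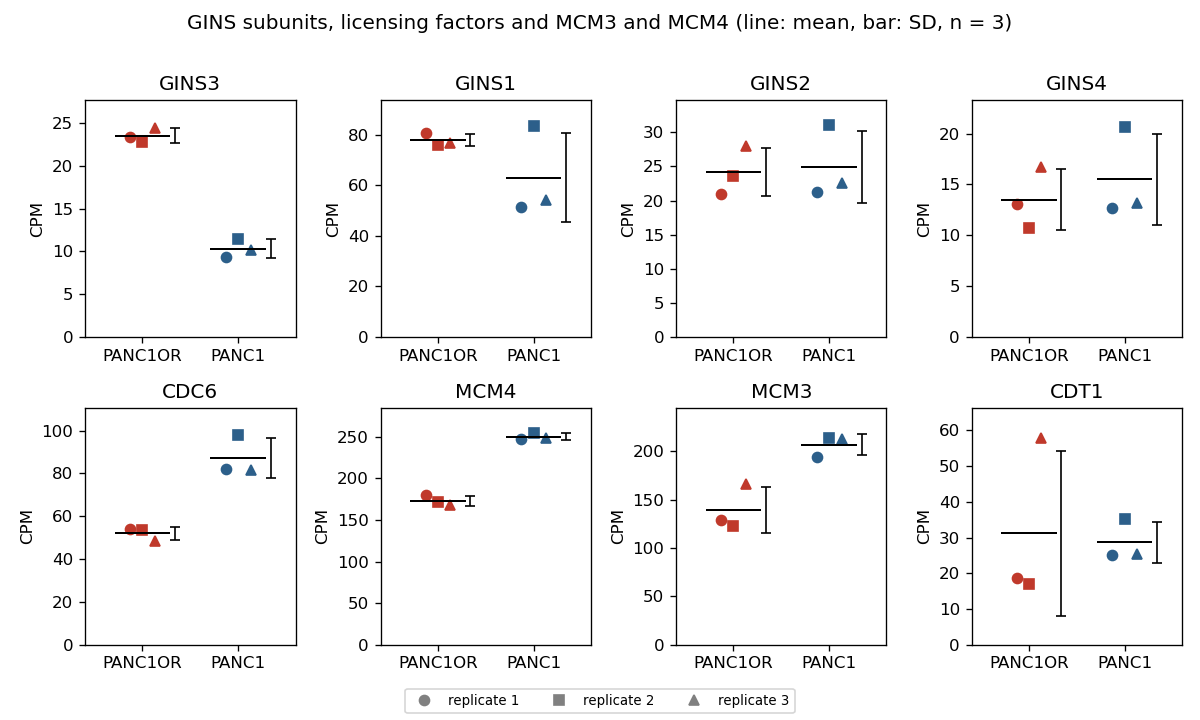
CPM of the 4 GINS subunits, the licensing factors CDC6 and CDT1 and the helicase subunits MCM3 and MCM4 in the 3 libraries of PANC1OR (left in each panel) and of PANC1 (right), with the mean as a line and the SD as a bar, on axes from 0. GINS3 is the one GINS subunit whose groups do not overlap, and PANC1OR replicate 3 sets the wide SD of CDT1.

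Of the licensing factors 1 of 3 fell, and 2 of 3 fell without PANC1OR replicate 3 (CDC6 and CDT1) and 2 of 3 with GC offsets (CDC6 and GMNN). CDC6 (ENSG00000094804, chromosome 17, 40287879 to 40304657), the ATPase that loads the helicase with ORC, was at 54.0, 53.6 and 48.3 CPM in PANC1OR and at 82.2, 98.1 and 81.8 CPM in PANC1. Each PANC1OR library lay below each PANC1 library. The log2 fold change was -0.75 ± 0.18 (adjusted p = 0.0218). Without any 1 of the 5 libraries other than PANC1OR replicate 3 the adjusted p was 0.0686 to 0.0835, and without PANC1OR replicate 3 it was 0.00211.

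CDT1, the partner of CDC6 in loading, had no call. It was at 18.8, 17.0 and 57.8 CPM in PANC1OR and at 25.2, 35.3 and 25.5 CPM in PANC1, where PANC1OR replicates 1 and 2 lay below and replicate 3 above all PANC1 libraries. Its log2 fold change was 0.12 ± 0.46 with 6 libraries, -0.68 ± 0.18 without PANC1OR replicate 3 (adjusted p = 0.0149) and -0.05 ± 0.12 with GC offsets (adjusted p = 0.79), so its direction differed between these fits. GMNN, the inhibitor of CDT1, was at 39.5 ± 9.52 CPM in PANC1OR and 51.3 ± 5.64 CPM in PANC1 (adjusted p = 0.338; 0.0324 with GC offsets).

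Of the 6 ORC genes, the origin-binding subunits, 0 were called with 6 libraries by edgeR's test, 1 was at an unadjusted p under 0.05 (ORC1) and 0 were called by DESeq2, and 3 had a positive and 3 a negative fold change. Without PANC1OR replicate 3, 2 rose and 1 fell, and with GC offsets 0 rose and 2 fell. The lowest adjusted p was that of ORC1 (0.15), the largest subunit, at 23.7 ± 2.08 CPM in PANC1OR and 32.3 ± 0.377 CPM in PANC1, and ORC1 was called lower without PANC1OR replicate 3 (0.00721) and with GC offsets (0.00778). ORC2, a core subunit, was at 101, 100.9 and 55.0 CPM in PANC1OR and at 70.2, 70.9 and 68.4 CPM in PANC1. PANC1OR replicates 1 and 2 lay above and replicate 3 below all PANC1 libraries (0.30 ± 0.25, adjusted p = 0.503; 0.52 ± 0.10 and called higher without PANC1OR replicate 3, adjusted p = 0.00347; 0.21 ± 0.11 with GC offsets, 0.152). ORC3, another core subunit, was at 54.8, 56.0 and 20.8 CPM in PANC1OR and at 67.6, 58.6 and 61.8 CPM in PANC1. Its groups did not overlap, and PANC1OR replicate 3 was the low library (-0.51 ± 0.35, adjusted p = 0.389). ORC3 was called lower with GC offsets (-0.65 ± 0.16, adjusted p = 0.00936) and when both PANC1 replicate 2 and PANC1OR replicate 3 were omitted (0.0131), and stood at -0.19 ± 0.11 without PANC1OR replicate 3 (0.204). ORC5 was called higher without PANC1OR replicate 3 (0.55 ± 0.13, adjusted p = 0.00844) and stood at 0.18 ± 0.17 with GC offsets (adjusted p = 0.456). ORC4 was at 37.1 ± 15.3 CPM in PANC1OR and 35.8 ± 5.33 CPM in PANC1, and ORC6 at 25.6 ± 3.38 CPM in PANC1OR and 29.6 ± 2.49 CPM in PANC1, and neither was called in any of the 4 fits.

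Primase and polymerase alpha had 0 of 4 genes called with 6 libraries by edgeR's test, with 1 at an unadjusted p under 0.05, POLA1, and 1 called by DESeq2, also POLA1. Without PANC1OR replicate 3, 1 rose and 2 fell, and with GC offsets 0 rose and 2 fell. POLA1, the catalytic subunit, was at 56.7, 58.9 and 39.1 CPM in PANC1OR and at 88.7, 71.7 and 88.9 CPM in PANC1. The groups did not overlap (-0.69 ± 0.22, adjusted p = 0.0675), and the adjusted p was 0.0104 without PANC1OR replicate 3 and 0.000289 with GC offsets. PRIM1, the catalytic primase subunit, was at 25.8, 28.04 and 11.6 CPM in PANC1OR and at 17.8, 16.6 and 18.2 CPM in PANC1 (0.32 ± 0.33). It was called higher without PANC1OR replicate 3 (0.60 ± 0.13, adjusted p = 0.00528) and not with GC offsets (adjusted p = 0.36). POLA2 and PRIM2, the accessory subunits, stood at -0.21 ± 0.29 and -0.43 ± 0.30 with 6 libraries. POLA2 was called lower without PANC1OR replicate 3 (adjusted p = 0.00684) and PRIM2 with GC offsets (0.0416).

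The polymerases that copy the strands had 0 of 5 genes called with 6 libraries by edgeR's test, with POLE at an unadjusted p of 0.0426 and 0 called by DESeq2. In the fit without PANC1OR replicate 3 and in that with GC offsets 3 fell. POLD2, an accessory subunit of polymerase delta, was at 66.4, 60.9 and 135.6 CPM in PANC1OR and at 119.9, 208 and 126 CPM in PANC1. The high library of each line was the one with the GC deviation. The log2 fold change was -0.79 ± 0.36 (adjusted p = 0.186), -1.26 ± 0.24 without PANC1OR replicate 3 (0.00306) and -0.84 ± 0.15 with GC offsets (0.00163). POLE, the catalytic subunit of the leading-strand polymerase, stood at -0.57 ± 0.24 and POLD1, that of polymerase delta, at -0.35 ± 0.43 with 6 libraries, and both were called lower in the other 3 fits named above. POLE2, the second subunit of polymerase epsilon, was at 30.0, 28.9 and 14.5 CPM in PANC1OR and at 22.7, 23.8 and 26.8 CPM in PANC1, with overlapping groups and a fold change of 0.00 ± 0.29. POLD3 was at 42.7 ± 4.19 CPM in PANC1OR and 51.4 ± 8.70 CPM in PANC1.

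PCNA and its loader RFC had 0 of 6 genes called by edgeR's test, with 0 at an unadjusted p under 0.05 and 0 called by DESeq2. With PANC1OR replicate 3 omitted 1 rose and 0 fell, and with GC offsets 1 rose and 2 fell. PCNA was at 152, 169.6 and 99.7 CPM in PANC1OR and at 164, 200.1 and 193 CPM in PANC1, with overlapping groups (-0.40 ± 0.23, adjusted p = 0.302; 0.0431 with GC offsets). RFC1, the large loader subunit, was at 113, 106 and 72.2 CPM in PANC1OR and at 82.8, 71.0 and 64.6 CPM in PANC1 (0.42 ± 0.22, adjusted p = 0.265). PANC1OR replicate 3 fell among the PANC1 values, and RFC1 was called higher without it (0.58 ± 0.13, adjusted p = 0.00756) and with GC offsets (0.37 ± 0.11, adjusted p = 0.0258). The small subunits RFC2 to RFC5 had log2 fold changes between -0.23 and 0.01. Of these, 1 was called lower with GC offsets, RFC3 (adjusted p = 0.0362).

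FEN1 and DNA2, nucleases that trim the flaps of Okazaki fragments, were not called by edgeR's test, with 0 of 2 at an unadjusted p under 0.05 and 0 called by DESeq2. FEN1 was at 60.5, 58.5 and 81.7 CPM in PANC1OR and at 71.8, 94.0 and 77.3 CPM in PANC1 (-0.28 ± 0.21). DNA2 was at 74.3, 78.9 and 38.1 CPM in PANC1OR and at 81.7, 71.8 and 77.2 CPM in PANC1 (-0.27 ± 0.28). In both genes the groups overlapped. FEN1 was called lower without PANC1OR replicate 3 (adjusted p = 0.0259) and DNA2 with GC offsets (0.00868).

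The fork protection genes TIMELESS, TIPIN and CLSPN were not called with 6 libraries by edgeR's test, with 2 at an unadjusted p under 0.05 (TIPIN and CLSPN) and 1 called by DESeq2 (CLSPN). In the fit without PANC1OR replicate 3 and in that with GC offsets TIPIN and CLSPN fell, and with GC offsets TIMELESS rose. CLSPN, which encodes the checkpoint mediator claspin, was at 86.1, 82.7 and 63.4 CPM in PANC1OR and at 144, 125 and 103 CPM in PANC1. Its groups did not overlap (-0.68 ± 0.21, adjusted p = 0.0582), and it was called lower without PANC1OR replicate 3 (0.0154) and with GC offsets (0.00183). TIPIN had non-overlapping groups too, with 17.1 ± 3.57 CPM in PANC1OR and 26.0 ± 4.22 CPM in PANC1 (adjusted p = 0.14). TIMELESS, which pairs with TIPIN at the fork, was at 116, 115 and 169 CPM in PANC1OR and at 98.9, 117 and 101 CPM in PANC1, with overlapping groups (0.33 ± 0.21). It was called higher with GC offsets (0.0298) and when both PANC1 replicate 2 and PANC1OR replicate 3 were omitted (0.0259). With only PANC1OR replicate 3 omitted it was not called (0.441).

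TK1, the S-phase thymidine kinase, was at 39.3, 43.03 and 114 CPM in PANC1OR and at 68.7, 126 and 74.5 CPM in PANC1. The high library of each line was again the one with the GC deviation, and the groups overlapped (-0.46 ± 0.44; -1.13 ± 0.25 without PANC1OR replicate 3, adjusted p = 0.00661; 0.0146 with GC offsets). E2F1 was at 49.4, 45.2 and 105.9 CPM in PANC1OR and at 51.7, 69.8 and 56.6 CPM in PANC1 (0.17 ± 0.34, adjusted p = 0.79). Its value turned to -0.33 ± 0.15 without PANC1OR replicate 3 (adjusted p = 0.0984). When PANC1 replicate 2 was omitted as well, E2F1 was called lower (-0.21 ± 0.08, adjusted p = 0.0406).

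Per kilobase of the Ensembl canonical transcript, the order of levels within the machinery was similar in both lines at its ends. PCNA was highest, at 110.2 ± 28.5 CPM per kilobase in PANC1OR and 145 ± 15.1 in PANC1, followed by MCM7 at 107 ± 44.7 in PANC1OR and 119 ± 26.1 in PANC1, and by POLD2 at 54.5 ± 25.9 in PANC1OR and 94.2 ± 30.6 in PANC1. PCNA and MCM7 did not differ beyond their SD in PANC1OR. GINS4 was lowest, at 3.58 ± 0.801 CPM per kilobase in PANC1OR and 4.11 ± 1.19 in PANC1. GINS3 held rank 34 of 43 in PANC1OR, at 10.7 ± 0.378, and rank 42 in PANC1, at 4.69 ± 0.494. CDC6 held rank 32 in PANC1OR and rank 20 in PANC1.

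Of 112 other genes of DNA replication and the cell cycle, in 7 lists, 5 rose and 2 fell, 6.25% of them beside 17.8% of all tested genes. Without PANC1OR replicate 3, 21 rose and 27 fell, 42.9% of them beside 44.1% of all tested genes. With GC offsets 19 rose and 26 fell, 40.2% beside 39%. Of 16 nucleotide supply genes 2 rose, SAMHD1 and TK2, and 1 fell. SAMHD1, which degrades deoxynucleotides, rose to 46.7 ± 4.14 CPM in PANC1OR, against 26.1 ± 1.91 CPM in PANC1 (0.84 ± 0.19, adjusted p = 0.0172), and TK2, the mitochondrial thymidine kinase, to 24.0 ± 4.49 CPM in PANC1OR, against 13.6 ± 1.29 CPM in PANC1 (0.81 ± 0.22, adjusted p = 0.0386).

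Of 18 E2F factors, pocket proteins and DREAM subunits 1 rose, E2F7, a repressor of E2F target genes. It was at 63.6, 61.4 and 49.8 CPM in PANC1OR and at 29.7, 26.7 and 29.8 CPM in PANC1, without overlap (1.02 ± 0.19, adjusted p = 0.00785), with adjusted p of 0.0502 and 0.0522 when PANC1 replicate 1 or 3 was omitted. Of 20 licensing, origin firing and S-phase kinase genes 1 rose, CDC25A, a phosphatase that activates CDK2 (29.3 ± 2.15 CPM in PANC1OR, 17.5 ± 2.14 CPM in PANC1; 0.75 ± 0.20, adjusted p = 0.0362). Of 15 markers of G2 and mitosis the spindle factor gene TPX2 rose (0.66 ± 0.19, adjusted p = 0.0444) and CCNB1, which encodes cyclin B1, fell (-0.79 ± 0.17, adjusted p = 0.0153). The proliferation marker MKI67 was at 1198 CPM in PANC1OR and 1328 CPM in PANC1 (adjusted p = 0.654). Without PANC1OR replicate 3, 2 of these 15 rose and 5 fell, 46.7% of them beside 44.1% of all tested genes. With GC offsets 3 rose and 6 fell, 60% beside 39%. In both of these fits TOP2A and CDC20 fell and AURKA rose, and none of them was called with 6 libraries by edgeR's test. The remaining lists, of 20 fork and lagging-strand genes, 10 chromatin and methylation genes and 13 checkpoint genes, had 0 calls by edgeR's test and 1 gene each at an unadjusted p under 0.05. DESeq2 called 1, 0 and 0 of them.

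The calls outside the machinery also rested on few libraries. With 1 library omitted, other than PANC1OR replicate 3, the adjusted p of CDC25A ranged over 0.0665 to 0.181 and that of TK2 over 0.0796 to 0.143. SAMHD1 lost its call when 1 of 4 libraries was omitted, which were replicates 1 and 2 of PANC1OR and replicates 1 and 3 of PANC1 (0.0803 to 0.106), and TPX2 with the same 4 (0.147 to 0.201). CCNB1 lost it with 3 of them, PANC1 replicate 1 being the exception (0.0635 to 0.0693). These 6 genes (CDC25A, SAMHD1, TK2, E2F7, TPX2 and CCNB1) kept their call and direction with GC offsets and when PANC1OR replicate 3 was omitted.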

How the data were processed

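Messenger RNA libraries of 3 PANC1OR and 3 PANC1 cultures were analysed from 1 deposited table of raw read counts per gene, made by the authors. Per the series design text, reads were checked with FastQC 0.11.5, trimmed with cutadapt through Trim Galore 0.4.2, mapped with STAR 2.5 to GRCh38, and assigned to genes by featureCounts (Subread 1.6.2). The sources used here give neither the annotation release nor the strand setting.

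Counts were filtered with filterByExpr, scaled with TMM and tested with edgeR 4.0.16 (R 4.3.3; quasi-likelihood F test, PANC1OR minus PANC1) over 18751 genes, with Benjamini-Hochberg adjustment over all of them and a threshold of 0.05. CPM values are TMM-scaled. Alternatives were DESeq2 1.42.0, edgeR's likelihood ratio test, other filters and scaling, leaving out libraries and a replicate block. A further alternative used lowess offsets (span 0.3) for GC content, which was known for 99.4% of tested genes. Calls in each used an adjusted p under 0.05, and with the likelihood ratio test 0 members passed the cutoffs of the series. Gene positions and transcript lengths came from GENCODE 44.

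Values per library are given for called members and for the highest and lowest fold change of each role, and for other lists up to 3 called genes with the smallest p. Members called in other fits may be named, with the adjusted p there. The members, lists and alternatives were chosen with earlier results of these data known. Columns without values were left out. The values of 1 called gene of the other lists are not reported here.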

Additional observations from a re-analysis of the deposited data

How the results depend on the processing

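The number of members called lower was 2 with 6 libraries, 5 with DESeq2, 4 with edgeR's likelihood ratio test, 1 with no filter on low counts, 19 with GC offsets, 22 when both PANC1 replicate 2 and PANC1OR replicate 3 were left out, and 0 to 18 with 1 library left out, where 18 was the value without PANC1OR replicate 3. Members called higher were 3 with GC offsets, 7 with both libraries left out, and 1 to 5 with 1 left out. All genes called were 3345 with 6 libraries, 7307 with GC offsets, 11422 with both left out and 1821 to 8663 with 1 left out. Of all tested genes, 7.5% were called lower with 6 libraries, 9.56% with DESeq2 and with the likelihood ratio test, and 4.64% with no filter. The share called lower was 19.1% with GC offsets, 29.5% with both left out and 3.67% to 22% with 1 left out. That called higher was 19.9% with GC offsets, 29% with both left out and 5.64% to 22.1% with 1 left out. Of the other replication and cell cycle genes, 2 were called higher with no filter, 19 with GC offsets, 28 with both left out and 0 to 21 with 1 left out, and 7 were called lower with DESeq2, 5 with the likelihood ratio test, 4 with no filter, 26 with GC offsets, 39 with both left out and 1 to 27 with 1 left out. The cause was not tested.

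With the replicate number as a block, 1 member was called higher and 0 lower, where 7.48% of all tested genes were called higher and 4.92% lower. Of the other lists, 1 gene was called higher and 1 lower. With the block and GC offsets together 2 members were called higher and 17 lower, 14 other genes higher and 20 lower, and 6263 genes in all (33.4%). Same-numbered libraries correlated at 0.46, -0.45 and -0.22 in their deviations from the group means. PANC1OR replicate 3 and PANC1 replicate 2, the libraries with the GC deviation, correlated at 0.51. Since these deviations hold the GC shift, they cannot decide whether the numbers pair the samples.

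The median log2 fold change of the members moved by less than the spread between replicates in every setting run. Signs turned for 8 members, whose log2 fold change with 6 libraries lay between -0.20 (GINS4) and 0.17 (E2F1). Of these, CDT1 and E2F1 were positive with 6 libraries and were called lower with both libraries left out, CDT1 also without PANC1OR replicate 3. POLE2 stood at -0.015 with DESeq2 size factors and with DESeq2, at -0.052 with GC offsets, at -0.059 with the block, at -0.077 with the block and GC offsets, and at -0.18 to 0.26 with 1 library left out. RFC2 stood at -0.0014 with DESeq2 size factors and with DESeq2, and at -0.22 to 0.27 with 1 left out. CDT1 stood at -0.51 with both libraries left out, -0.047 with GC offsets, -0.11 with the block, -0.052 with the block and GC offsets, and -0.68 to 0.41 with 1 left out. E2F1 stood at -0.21 with both left out and -0.33 to 0.38 with 1 left out. ORC4 stood at -0.088 with GC offsets, -0.034 with the block, -0.095 with the block and GC offsets, and -0.20 to 0.33 with 1 left out. With 1 left out MCM7 ran from -0.56 to 0.045, GINS2 from -0.17 to 0.14 and GINS4 from -0.37 to 0.058.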
